A study of Mus musculus with 12 samples.

Results

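Fatty acid oxidation, ketogenesis and the targets of the nuclear receptor PPARA were followed through 39 genes, listed by symbol, in mouse liver after partial hepatectomy. All 39 are in the deposited table of 13554 genes, and all 39 were among the 12570 genes tested. The set holds 3 regulators, 4 genes of acyl-CoA synthesis and the carnitine shuttle, 10 of mitochondrial beta-oxidation and 3 of electron transfer from it. It also holds 1 ketone body enzyme, 8 genes of peroxisomal oxidation, 5 acyl-CoA thioesterases and 5 genes of lipid uptake, binding, storage and secretion.

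The livers came from male C57Bl/6J mice of wild-type genotype, and RNA was sequenced on day 3 after surgery in 4 groups of 3 libraries. In a partial hepatectomy, lobes of the liver are cut away and the remnant grows. The groups were a 70% resection (PH70), an 80% resection (PH80), an 80% resection in an arm labelled HC (PH80_HC), and an 80% resection combined with G-CSF plus HNF4a (PH80_G+H). The labels used here explain neither HC nor the form, dose or schedule of G-CSF plus HNF4a, and they give no age. All groups were resected, and no unoperated liver is among the samples, so the values compare resected livers with each other. Whether each library is another animal is not stated, so p-values measure only the spread among libraries, part of which may be technical.

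In the liver, fatty acids are activated to acyl-CoA, carried into mitochondria by the carnitine shuttle and shortened by beta-oxidation, which feeds electrons to the respiratory chain and acetyl-CoA to ketone body synthesis. Peroxisomes shorten the fatty acids that mitochondria handle poorly. PPARA binds fatty acids, pairs with the retinoid X receptor (RXR) and drives many of these genes during fasting, through DNA sites made of a direct repeat with a single base between (DR1).

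Values are reads divided by a size factor per library, called normalised reads below. Libraries held between 9.72 M and 44.5 M reads. Differences are on the log2(value + 1) scale from limma fitted to all 12 libraries, adjusted by the Benjamini-Hochberg method over all genes tested, and a gene was called at an adjusted p under 0.05. Folds are these log2 differences converted back, so they can depart from the ratio of the printed means. Of 12 hepatocyte markers, 11 are in the table and none of these is at 0. Their summed level was 3058675 to 3399536 in PH80, below every library of PH70 (3946741 to 4335365), PH80_HC (3682935 to 5744622) and PH80_G+H (3499954 to 4160069). Marker by marker, 9 of the 11 were below 0 in PH80 against PH70 and 2 above (median -0.132). Of these markers, limma and edgeR called 0 and DESeq2 called 1 lower. With every library scaled to the same total, 6 of 11 were below 0 (median -0.012). PH80 replicate 2 held the highest sums of neutrophil markers (6065, against 153.7 to 2446 in the other libraries) and of stellate cell markers (20824, against 5395 to 14405). In PH80 against PH70, 10 of 10 neutrophil markers tested were above 0 (median 1.033) and 11 of 13 macrophage markers (median 0.312), 0 of them called by limma or edgeR, 3 and 1 called higher by DESeq2, and 3 and 4 at an unadjusted p under 0.05. The sum of the 3 adipocyte markers in the table, of 8 listed, was 3178 to 5758 in PH80 and 2080 to 2881 in PH70. Of these 3, 2 were above 0 in PH80 against PH70 and 1, Pparg, was called lower (-1.17, limma adjusted p = 0.0109). In whole liver, fewer cells of a type and less RNA per cell cannot be told apart, and the part of these marker levels in the results below was not tested.

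Levels of the members were set side by side as normalised reads per kb of exonic length, averaged over the 12 libraries. Fabp1, the abundant fatty acid binding protein of the hepatocyte cytosol, was highest on this scale at 166447 per kb. Next came Acaa2 (12507), the last thiolase of mitochondrial beta-oxidation, and Etfb (11776) and Etfa (4272), the subunits of the electron transfer flavoprotein. Ppargc1a, which encodes the coactivator PGC-1alpha, was lowest at 16.6 per kb, and the thioesterases Acot3 (45.0), Acot4 (64.1) and Acot2 (68.0) followed. The spread between libraries of a group, as a pooled SD on the log2 scale, had a median of 0.353 over the members. It ran from 0.198 for Cpt2, the inner-membrane carnitine transferase, to 0.868 for Fabp1.

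Fabp1 ranged from 27717 in PH80 replicate 2 to 159648 in PH70 replicate 1, and all 4 groups overlapped. It was also the single member whose promoter held a DR1 motif. RefSeq promoters (GRCm38.p6), running from 250 bases before to 50 after a start, were matched by symbol for 34 of 39 members and 38 promoters. The exact repeat AGGTCANAGGTCA was found on neither strand in any of them, and in 0.0396% of all 32851 promoters. With the fourth base of each repeat unit free (AGGNCANAGGNCA, which includes the exact form), 1 of 34 members had a match, against 0.451% of all 27025 genes. The stretch around it is shown because it is that single match. It lies at chr6:71199772-71199826 on the + strand, directly before the first exon in GENCODE M21 (GRCm38), and capitals mark the repeat, which reads on the opposite strand, 67 to 55 bases before the RefSeq start.
Fabp1: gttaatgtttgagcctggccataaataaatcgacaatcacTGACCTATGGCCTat

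In the same windows 3 shorter motifs were searched, against all genes of the promoter table, which include genes not expressed in liver. A GC box (GGGCGG, either strand) was present in 24 of 34 members (70.6%), against 38.2% of all genes. A TATA box (TATAAA, either strand) was present in 2 of 34 (5.88%), Acot4 and Fabp1, against 15.7% of all genes. The single repeat unit AGGTCA was present in 9 of 34 (26.5%), against 18.1%. A match is a description of these letters in this window, and DR1 sites of PPARA target genes can lie outside it.

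The first comparison asks how the members differed between the larger and the smaller resection. After the 80% resection, Ppara itself, Cpt1a and Bdh1 fell, with log2 differences of -1.66, -1.18 and -0.97, and no member was called higher. The called genes encode the receptor, an enzyme of fatty acid entry into mitochondria and the enzyme of the last step of ketone body synthesis. These steps as a whole were not tested. Most other members lay on the same side without passing the test: 33 of 39 members were below 0, with a median of -0.432, against 0.014 over all genes tested. Of the thioesterases, 4 of 5 were above 0. Calls made up 2.73% of all genes lower and 1.09% higher, against 3 of 39 and 0 of 39 members. At an unadjusted p under 0.05 there were 16 members, and the count over all genes at that level is not given here or below. EdgeR on the recovered reads called 2 members lower (Cpt1a and Ppara), DESeq2 called 7 (those with Bdh1, Acsl1, Etfdh, Hsd17b4 and Acaa1a), and neither called a member higher. Over all 12570 genes tested, edgeR called 368 and DESeq2 952, both directions together.

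**Figure D1:**
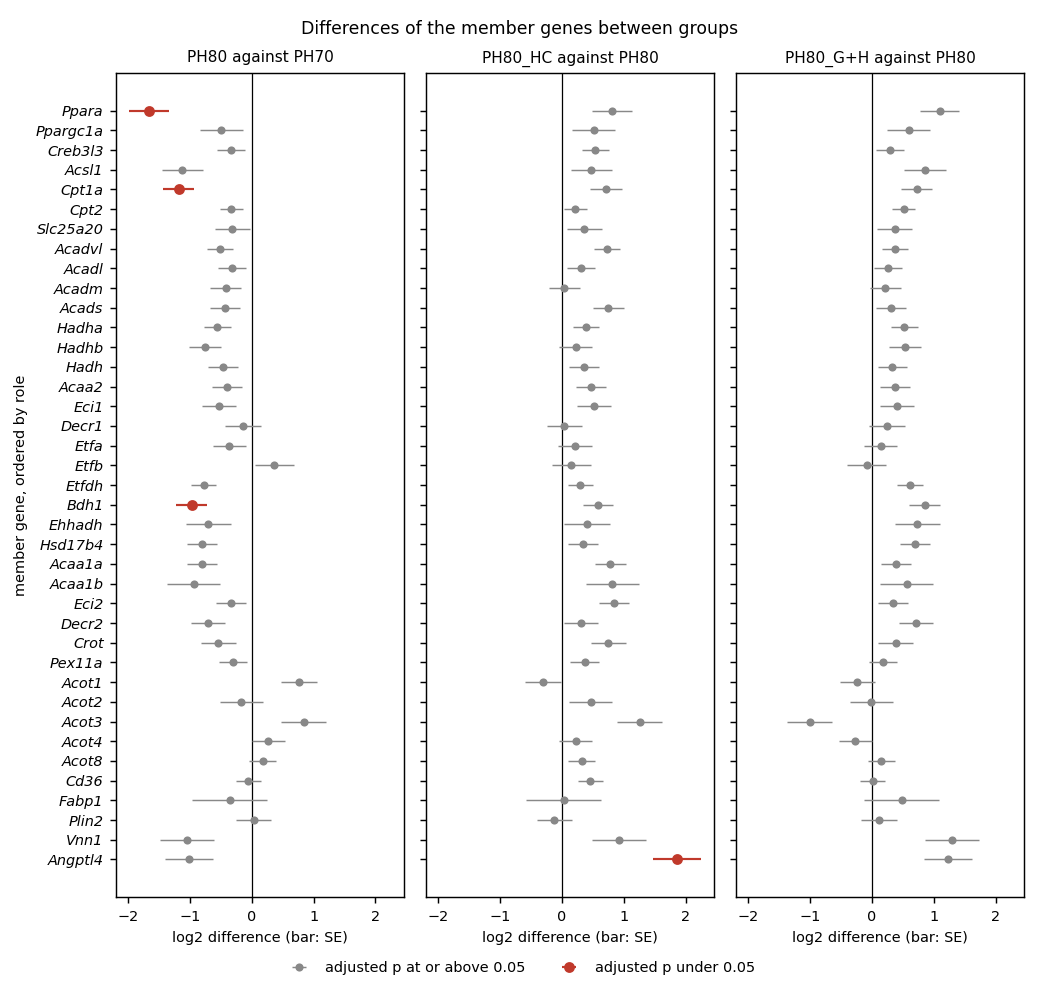
Log2 differences of the 39 members in 3 comparisons (horizontal axis; bars are standard errors), with genes ordered by role from regulators at the top to secreted targets at the bottom. Red points passed the adjusted p of 0.05: Ppara, Cpt1a and Bdh1 in PH80 against PH70, and Angptl4 in PH80_HC against PH80; the PH80 libraries enter all 3 panels.

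Among the regulators, Ppara lies on chromosome 15 (85734983 to 85802819, GRCm38, + strand). Its normalised reads were 3630, 3550 and 2072 in the PH70 replicates and 866, 695 and 1394 in the PH80 replicates. They were 1592, 2535 and 1120 in PH80_HC and 1796, 2200 and 2067 in PH80_G+H. Every PH80 library was below every PH70 library, the PH80_HC values overlapped both, and the PH80_G+H values lay above PH80. Ppara was 3.17-fold lower in PH80 (985 ± 364 against 3084 ± 878, SD, n = 3), with a log2 difference of -1.66 (SE 0.318, limma adjusted p = 0.0142). Over 22 alternative settings the adjusted p ran from 7.83e-05 to 0.0828, and the call was lost without PH70 replicate 1 or 2 or PH80 replicate 1 or 2.

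Creb3l3 encodes a liver transcription factor of the endoplasmic reticulum that acts with PPARA in fasting. It measured 8433, 9325 and 6378 in PH70, 6000, 5647 and 7376 in PH80, 10498, 7077 and 10343 in PH80_HC, and 8639, 6965 and 7652 in PH80_G+H. PH70 and PH80 overlapped (log2 difference -0.34, SE 0.222, adjusted p = 0.399). Ppargc1a measured 118, 84.1 and 138 in PH70, 63.3, 97.9 and 78.1 in PH80, 169, 141 and 59.7 in PH80_HC, and 99.3, 136 and 125 in PH80_G+H. Here PH70 and PH80 overlapped too (log2 difference -0.49 in PH80 against PH70, SE 0.346, adjusted p = 0.424), while all PH80_G+H libraries lay above all PH80 libraries.

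All 4 genes of acyl-CoA synthesis and the carnitine shuttle were below 0 in PH80, and 1 was called. Cpt1a encodes the outer-membrane carnitine palmitoyltransferase that malonyl-CoA inhibits, the main control point of entry into mitochondria (chromosome 19, 3322334 to 3385733, + strand). It measured 5451, 6158 and 5842 in PH70, 1824, 3320 and 2785 in PH80, 4893, 5226 and 2912 in PH80_HC, and 4511, 4365 and 3858 in PH80_G+H. All PH80 libraries were below all PH70 libraries, PH80_HC replicate 3 lay among the PH80 values, and PH80_G+H lay between PH80 and PH70 without overlap. Cpt1a was 2.26-fold lower in PH80 (2643 ± 758 against 5817 ± 354, SD, n = 3, log2 difference -1.18, SE 0.252, adjusted p = 0.0227). The adjusted p ran from 7.06e-04 to 0.112 over the alternatives, and the call was lost with every library scaled to the same total and without PH70 replicate 1, 2 or 3 or PH80 replicate 1.

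The bases before the RefSeq start of Cpt1a are shown because it is a called member with a repeat unit in its promoter. Acot3, called in other comparisons, has a repeat unit in its promoter too and is not shown. The bases of Cpt1a lie at chr19:3323201-3323284 (GRCm38.p6, + strand), 100 to 17 bases before the RefSeq start. In GENCODE M21 they fall inside the span of the gene and outside every exon. Capitals mark the repeat unit, written here on the opposite strand, and 2 GC boxes on the opposite strand.
Cpt1a: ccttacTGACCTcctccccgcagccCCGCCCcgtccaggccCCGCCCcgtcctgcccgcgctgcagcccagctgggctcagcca

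Acsl1, the main long-chain acyl-CoA synthetase of hepatocytes, was 2.18-fold lower in PH80 without passing the test (4399 ± 1880 against 9310 ± 2930, SD, n = 3, adjusted p = 0.0788). Its groups did not overlap, and it was called by DESeq2. The other carnitine genes differed less, with -0.33 for Cpt2 and -0.31 for Slc25a20, the carnitine carrier of the inner membrane (adjusted p = 0.313 and 0.541).

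All 10 members of mitochondrial beta-oxidation were below 0 in PH80 (median -0.45, range -0.76 to -0.15). Limma, edgeR and DESeq2 called 0 of them, and 3 had an unadjusted p under 0.05. The lowest was Hadhb, the thiolase subunit of the trifunctional protein, at -0.76 (SE 0.26, adjusted p = 0.121). Its partner Hadha, which carries the hydratase and dehydrogenase activities, was at -0.56 (SE 0.214, adjusted p = 0.161). Acyl-CoA dehydrogenases act first in each round, on very long, long, medium and short chains: Acadvl stood at -0.51, Acadl at -0.32, Acadm at -0.42 and Acads at -0.43. Hadh, the short-chain dehydrogenase of the later step, stood at -0.47, and Acaa2 at -0.40. Eci1 and Decr1, which move or reduce the double bonds of unsaturated chains, stood at -0.54 and -0.15.

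Hadha and Hadhb start back to back on chromosome 5, and their RefSeq promoter windows overlap by 228 bases. The 85 bases between the annotated genes are shown because both subunits lay below 0 with no overlap between PH80 and PH70; this stretch and that of Fabp1 were chosen after the values were seen. It lies at chr5:30155163-30155247 (GRCm38.p6, written on the + strand, which is that of Hadhb), and capitals mark 2 GC boxes.
Hadha and Hadhb: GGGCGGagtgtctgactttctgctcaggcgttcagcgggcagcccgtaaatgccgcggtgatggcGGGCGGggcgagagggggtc

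Hadha measured 6894, 8275 and 6268 in PH70 and 4482, 4658 and 5391 in PH80. Hadhb measured 1607, 2305 and 1478 in PH70 and 1004, 826 and 1353 in PH80. In both, the highest PH80 library stayed below the lowest PH70 library. Over all genes, 14.2% did not overlap with PH80 lower and 12.8% with PH80 higher. Of the members, 12 of 39 did not overlap with PH80 lower (Ppara, Acsl1, Cpt1a, Cpt2, Acadvl, Hadha, Hadhb, Etfdh, Bdh1, Hsd17b4, Acaa1a and Angptl4) and 1 of 39 with PH80 higher (Acot1).

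Of the electron transfer genes, Etfdh, the oxidoreductase that passes electrons to ubiquinone, was 1.72-fold lower in PH80 (2255 ± 505 against 3853 ± 715, SD, n = 3, adjusted p = 0.0523). The flavoprotein subunits Etfa and Etfb stood at -0.36 and 0.36 (adjusted p = 0.456 and 0.528), so the members of this group lay on both sides of 0.

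Bdh1 encodes the mitochondrial dehydrogenase that interconverts acetoacetate and beta-hydroxybutyrate (chromosome 16, 31422280 to 31458901, + strand). It measured 6287, 6577 and 4828 in PH70, 3313, 1973 and 4053 in PH80, 5403, 4274 and 3883 in PH80_HC, and 5157, 5748 and 5275 in PH80_G+H. All PH80 libraries were below all PH70 and all PH80_G+H libraries, and PH80_HC overlapped PH80. Bdh1 was 1.96-fold lower in PH80 than in PH70 (3113 ± 1050 against 5897 ± 938, SD, n = 3, log2 difference -0.97, SE 0.249, adjusted p = 0.0467). This call was close to the threshold: 7 of 22 alternatives kept it, with adjusted p values from 0.00883 to 0.191.

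All 8 members of peroxisomal oxidation were below 0 (median -0.708), limma and edgeR called 0, DESeq2 called 2, and 4 had an unadjusted p under 0.05. Hsd17b4, the D-bifunctional protein of the peroxisome, stood at -0.80 (SE 0.242, adjusted p = 0.0853). Acaa1a, a peroxisomal thiolase, stood at -0.80 as well (SE 0.246, adjusted p = 0.0897), and its near copy Acaa1b at -0.94 (SE 0.428, adjusted p = 0.225). The aligned transcripts of these copies were 95.7% identical, with an identical run of 327 bases, so reads could be split between them. Ehhadh, the L-bifunctional protein and a classical PPARA target, stood at -0.70, Decr2 at -0.71, Crot, the carnitine octanoyltransferase, at -0.54, Eci2 at -0.34 and Pex11a, a factor of peroxisome proliferation, at -0.31.

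Of the thioesterases, which cleave acyl-CoA back to free fatty acid, 4 of 5 were above 0, beside Etfb and Plin2 among the other members. Limma, edgeR and DESeq2 called 0 of 5 in this comparison, while 2 had an unadjusted p under 0.05. Acot1, the cytosolic form, measured 288, 435 and 178 in PH70 and 470, 476 and 486 in PH80. Its PH80 libraries were tightly grouped and above all PH70 libraries (1.69-fold, log2 difference 0.76, SE 0.288, adjusted p = 0.156). Acot3 stood at 0.84, Acot4 at 0.27, Acot8 at 0.18 and Acot2 at -0.17. With every library scaled to the same total, 4 of 5 were again above 0.

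Of the remaining members, Vnn1, a pantetheinase and PPARA target, stood at -1.05 (SE 0.439, adjusted p = 0.191) and Angptl4, a secreted inhibitor of lipoprotein lipase, at -1.01 (SE 0.389, adjusted p = 0.162). Cd36, the fatty acid uptake receptor, and Plin2, the coat protein of lipid droplets, stood near 0 (-0.05, SE 0.203, and 0.03, SE 0.287).

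**Figure D2:**
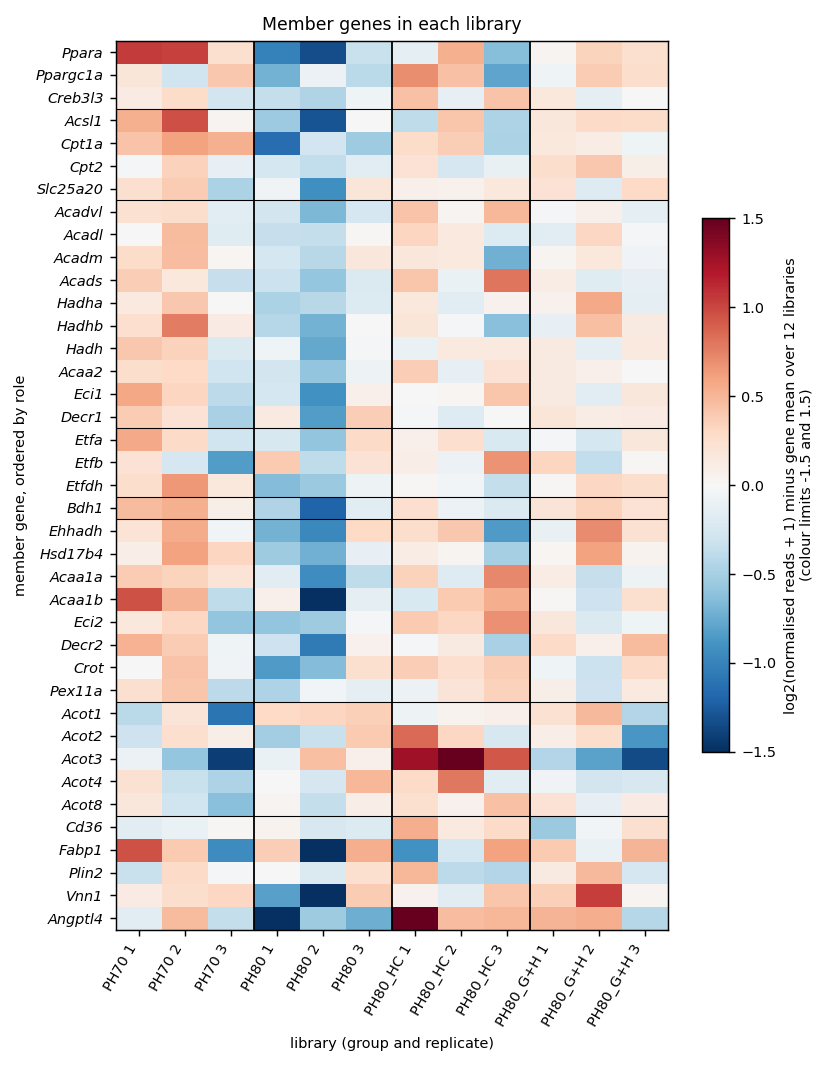
Each row is a member and each column a library; colour gives log2(normalised reads + 1) minus the mean of that gene over the 12 libraries, with limits at -1.5 and 1.5, thin lines between roles and thick lines between groups. PH80 replicate 2 is the bluest column, the lowest library for 22 of the 39 members, and the Acot3 row is red in the 3 PH80_HC libraries.

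The libraries of PH80 were not alike. The median deviation of the members from their means over all libraries was -0.31, -0.578 and 0.0 in PH80 replicates 1, 2 and 3. It was 0.226, 0.342 and -0.166 in PH70, 0.216, 0.07 and 0.078 in PH80_HC, and 0.112, 0.079 and 0.091 in PH80_G+H. PH80 replicate 2 was the lowest of the 12 libraries for 22 of 39 members, and it is the library with the highest neutrophil and stellate marker sums. Without it, 29 of 39 members were below 0 in PH80 against PH70, the median was -0.299, and Cpt1a was the single call. The count of calls fell to 0 without PH70 replicate 1, PH70 replicate 2 or PH80 replicate 1, was 1 without PH70 replicate 3, and rose to 6 without PH80 replicate 3.

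**Figure D3:**
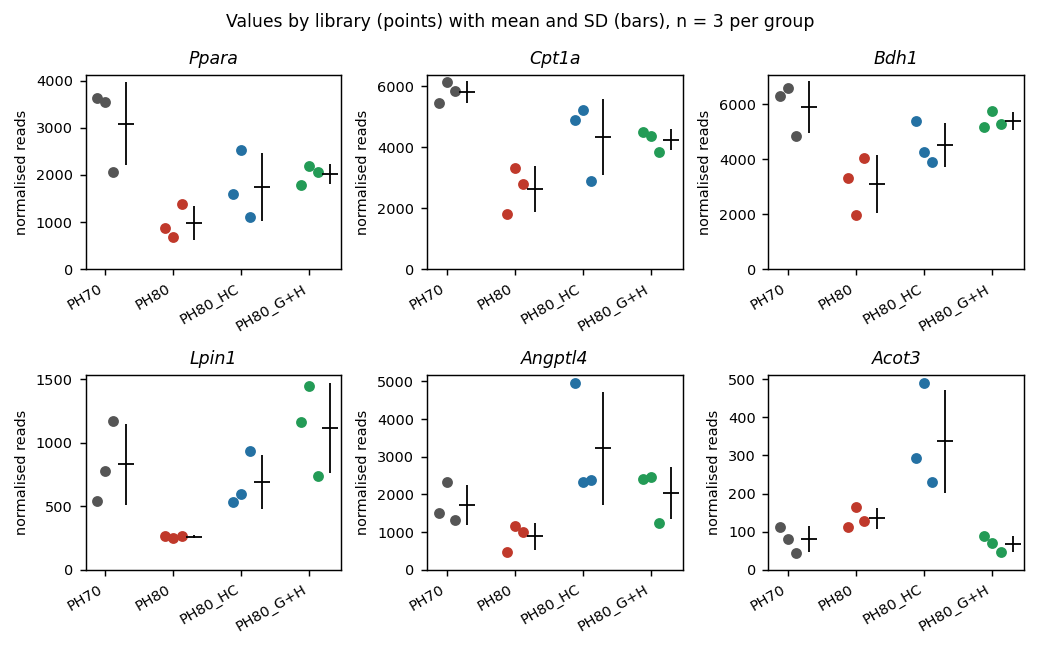
Normalised reads of the called members and of Lpin1, a coactivator of PPARA, in each library (points, replicates 1 to 3 from left to right) with group mean and SD (bars, n = 3), on linear axes that start at 0. Ppara, Cpt1a, Bdh1 and Lpin1 have their lowest means in PH80, Angptl4 its highest in PH80_HC, and Acot3 is at 229.6 or more in PH80_HC and at 165.2 or less in the other libraries.

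Other genes of the pathway were taken from lists outside the members. Of 27 other genes of mitochondrial oxidation and ketogenesis, 6 were called lower and 0 higher in PH80 against PH70 by limma and by edgeR (10 lower and 0 higher by DESeq2, 13 at an unadjusted p under 0.05), and the median was -0.583. With every library scaled to the same total, 2 were called lower. The smallest adjusted p values belonged to Pdk2, a kinase that switches off pyruvate dehydrogenase, at -1.36 (868 ± 97.3 against 2230 ± 261, SD, n = 3, adjusted p = 0.00317), and to Acsm3, Acsm5 and Acad10. Acsm3 and Acsm5 are medium-chain acyl-CoA synthetases, with differences of -1.58 and -1.21 (adjusted p = 0.0131 and 0.0199). Acad10, an acyl-CoA dehydrogenase, stood at -0.80 (adjusted p = 0.0207).

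Acat1, the mitochondrial acetyl-CoA thiolase, is named for its role after its values were seen. It measured 9251, 9566 and 4337 in PH70 and 3523, 2474 and 5531 in PH80, with overlap, and stood at -0.997 (SE 0.315, adjusted p = 0.0971).

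Of 24 other genes listed under peroxisomal oxidation, 3 were called lower and 0 higher (1 lower by edgeR, 7 lower and 1 higher by DESeq2, 14 at an unadjusted p under 0.05), with a median of -0.66. Where in the cell each of their proteins acts was not checked. With every library scaled to the same total, 0 of the 24 were called. The 3 called lower by limma were Acox3, a peroxisomal acyl-CoA oxidase (-0.88, adjusted p = 0.013), Cat, the catalase that removes the hydrogen peroxide these oxidases form (-1.14, adjusted p = 0.0427), and Acot12, an acetyl-CoA thioesterase (-0.84, adjusted p = 0.0475). Of 22 alternatives, 18 kept the call of Acox3, 9 that of Cat and 8 that of Acot12.

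Of 27 partners and other regulators, 3 were called lower and 1 higher (1 lower and 1 higher with every library scaled to the same total). EdgeR called 2 lower and 1 higher, and DESeq2 3 lower and 2 higher. Lpin1, a phosphatidate phosphatase that also coactivates PPARA, measured 541, 779 and 1175 in PH70 and 266, 246 and 269 in PH80 (-1.60, SE 0.301, adjusted p = 0.0137). Pparg and Ppargc1b, a receptor and a coactivator of the same families as the members, stood at -1.17 and -1.03 (limma adjusted p = 0.0109 and 0.0436). Of 22 alternatives, 18 kept the call of Pparg and 9 that of Ppargc1b. Ppard, the third receptor of the PPAR family, rose by 1.39 (590 ± 163 against 221 ± 44.2, SD, n = 3, adjusted p = 0.00724). Rxra, the partner of PPARA in the liver, was at -0.54 and was not called (adjusted p = 0.137).

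Of 23 other PPARA targets and droplet genes, 2 were called lower and 1 higher (1 lower and 1 higher with every library scaled to the same total). Cyp4a32 and Cyp4a12a, of a fatty acid hydroxylase family with members that PPARA induces, stood at -2.15 and -1.44 (limma adjusted p = 0.0175 and 0.0496). Of 22 alternatives, 18 kept the call of Cyp4a32 and 9 that of Cyp4a12a. Hilpda, an inhibitor of droplet lipolysis that also answers to hypoxia, rose by 1.70 (265 ± 34.7 against 83.9 ± 27.8, SD, n = 3, adjusted p = 0.00761). Of 17 other acyl-CoA synthetases and carriers, Slc27a5 (-0.96, adjusted p = 0.0372) and Acbd5 (-1.27, adjusted p = 0.0138) were called lower, 0 were called higher by limma or edgeR and 2 by DESeq2, 6 had an unadjusted p under 0.05, and the median was 0.092. With every library scaled to the same total, 1 of the 17 was called lower.

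Organelle genes outside these pathways were set beside the members. Of 30 mitochondrial genes of the citric acid cycle, import and maintenance, 0 were called by limma or edgeR (1 higher and 1 lower by DESeq2, 6 at an unadjusted p under 0.05), with a median of -0.112. Of 13 peroxisome assembly genes, 0 were called by limma, edgeR or DESeq2 (2 at an unadjusted p under 0.05), with a median of -0.252. The members' median of -0.432 was lower than both, and no test of this difference was made. Members and lists were chosen with earlier results of these data known, so the contrast is a description only.

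**Figure D4:**
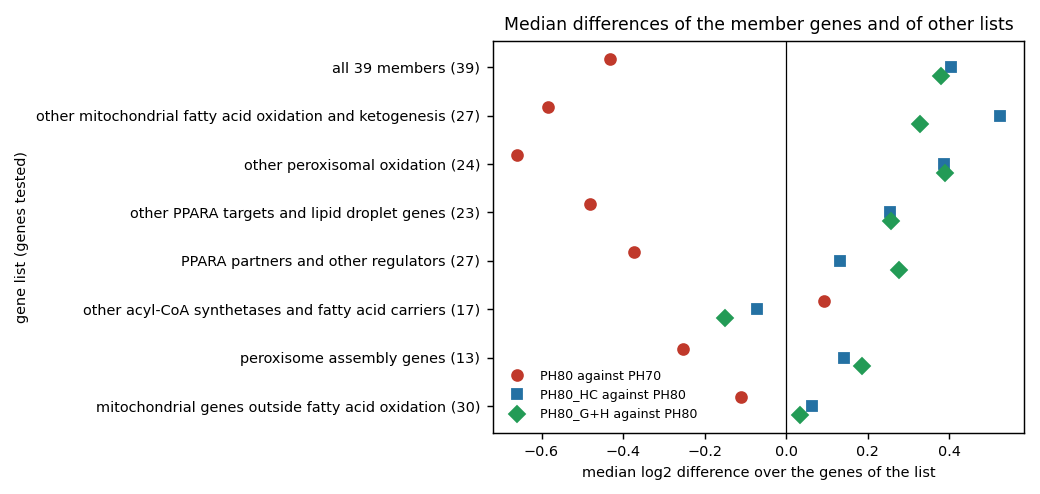
Median log2 difference (horizontal axis) of the 39 members and of 7 other gene lists, with the number of genes tested in brackets; circles give PH80 against PH70, squares PH80_HC against PH80 and diamonds PH80_G+H against PH80. The members stand at -0.432, 0.405 and 0.379, and the mitochondrial genes outside fatty acid oxidation at -0.112, 0.063 and 0.035. All lists were chosen with earlier results of these data known.

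The HC arm was compared with the 80% resection alone, a comparison that uses the same PH80 libraries as the first. Angptl4 rose 3.65-fold in PH80_HC, and no other member passed the test. The members' values were mostly above those of PH80: 37 of 39 were above 0 (median 0.405, against 0.013 over all genes), but 25 of 39 with every library scaled to the same total (median 0.075, against -0.314 over all genes). Relative to all genes the median was thus 0.392 and 0.389. Of 11 hepatocyte markers, 10 were also above 0 here, with a median of 0.437 (0.107 at the same total), and their part in the members' values was not tested. Without PH80 replicate 2, 33 of 39 members were above 0 and the median was 0.251. Over all genes, 0.652% were called higher and 0.239% lower, against 1 of 39 and 0 of 39 members. At an unadjusted p under 0.05 there were 12 members, edgeR called Angptl4, DESeq2 called 5 (Acads, Acadvl, Acot3, Angptl4 and Eci2), and neither called a member lower. Over all 12570 genes tested, edgeR called 116 and DESeq2 508, both directions together.

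Angptl4 lies on chromosome 17 (33773750 to 33781830, - strand). It measured 1500, 2336 and 1316 in PH70, 477, 1169 and 1014 in PH80, 4950, 2322 and 2388 in PH80_HC, and 2399, 2464 and 1252 in PH80_G+H. PH80 was below all other libraries, and PH80_HC replicate 1 was the highest of its group by a wide margin. The PH80_HC mean was 3220 ± 1500 against 886 ± 363 (SD, n = 3), with a log2 difference of 1.87 (SE 0.389, adjusted p = 0.0393). The adjusted p ran from 2.93e-04 to 0.134 over the alternatives, and 8 of 22 kept the call; it was lost without any 1 of the 3 PH80_HC libraries.

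Of the other members, 8 of 39 including Angptl4 did not overlap with PH80_HC higher (8.26% of all genes), namely Acadvl, Acads, Hadha, Eci2, Crot, Acot3 and Cd36, and 1 of 39 with PH80_HC lower (7.38% of all genes), Acot1. Acadvl stood at 0.72 (10143 ± 1670 against 6135 ± 960, SD, n = 3, adjusted p = 0.124) and Eci2, a peroxisomal isomerase, at 0.84 (5294 ± 753 against 2984 ± 679, adjusted p = 0.128). Ppara stood at 0.81 (adjusted p = 0.262), Cpt1a at 0.71 (adjusted p = 0.206) and Bdh1 at 0.59 (adjusted p = 0.301), with PH80_HC libraries on both sides of the highest PH80 value in each.

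Among the other lists, Cyp4a14, a strongly PPARA-induced hydroxylase, rose by 2.08 in PH80_HC (5340 ± 2940 against 1200 ± 481, SD, n = 3, adjusted p = 0.0389). Pdk2 rose by 0.945 (adjusted p = 0.0306) and Slc27a5, a bile acid and very long chain acyl-CoA synthetase, by 1.14 (adjusted p = 0.0357). Ppard fell by 1.66 (183 ± 25.8 against 590 ± 163, SD, n = 3, adjusted p = 0.0118). Of 22 alternatives, 11 kept the call of Cyp4a14, 12 that of Pdk2, 10 that of Slc27a5 and 21 that of Ppard. With every library scaled to the same total, 0 genes of the lists of Cyp4a14, Pdk2 and Slc27a5 were called higher.

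The arm with G-CSF and HNF4a was compared with the same PH80 libraries. No member was called by limma, edgeR or DESeq2, and 12 had an unadjusted p under 0.05, where 0.111% of all genes were called higher and 0.00796% lower by limma. Over all 12570 genes tested, edgeR called 11 and DESeq2 203, both directions together. The members' values again lay mostly above PH80, 34 of 39 above 0 with a median of 0.379 against 0.0 over all genes, and 33 of 39 with every library scaled to the same total. Without PH80 replicate 2 the median was 0.215.

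In this arm 14 of 39 members did not overlap with PH80_G+H higher (8.82% of all genes) and 1 of 39 with PH80_G+H lower (8.11% of all genes), Acot3. The 14 were Ppara, Ppargc1a, Acsl1, Cpt1a, Cpt2, Acadvl, Acads, Hadha, Acaa2, Etfdh, Bdh1, Hsd17b4, Decr2 and Angptl4. Ppara was at 1.09 (2021 ± 206 against 985 ± 364, SD, n = 3, SE 0.318, adjusted p = 0.227) and Bdh1 at 0.85 (5393 ± 313 against 3113 ± 1050, SE 0.249, adjusted p = 0.227). Cpt1a was at 0.72 (SE 0.252, adjusted p = 0.313) and Acsl1 at 0.86 (SE 0.332, adjusted p = 0.368). The hepatocyte marker sum was also higher in every PH80_G+H library than in every PH80 library, and its part in these values was not tested. Marker by marker, 8 of 11 were above 0 and 3 below in PH80_G+H against PH80 (median 0.111, and 0.014 with every library scaled to the same total).

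Of the other lists, Lpin1 was the single call in PH80_G+H against PH80. It measured 1166, 1449 and 741 in PH80_G+H against 246 to 269 in PH80, a rise of 2.05 (SE 0.301, adjusted p = 0.0243; 15 of 22 alternatives kept the call, but not the scaling of every library to the same total). Hnf4a, named because the arm carries HNF4a, measured 13577, 12742 and 10425 in PH80_G+H and 7482, 12708 and 10237 in PH80, with overlap (0.30, SE 0.233, adjusted p = 0.679).

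Both arms were also set against the smaller resection. In PH80_HC against PH70, 17 of 39 members were above 0 and 22 below, with a median of -0.019, and Acot3 was the single call (0.111% of all genes were called higher and 0.119% lower). In PH80_G+H against PH70, limma, edgeR and DESeq2 called 0 members, none had an unadjusted p under 0.05, and the median was -0.057 (0.0% of all genes were called higher and 0.00796% lower). Over all 12570 genes tested, edgeR called 1 and DESeq2 66 there. The members' median was -0.213, with 30 of 39 below 0, without PH70 replicate 3, and -0.238, with 33 of 39 below 0, without the 4 libraries of steepest trend on transcript length. In PH80_HC against PH70 the same settings gave -0.178 and -0.196. The log2 differences of all 39 members lay between -0.57 (Ppara) and 0.53 (Acot1) in PH80_G+H against PH70. A p above the threshold does not show equal levels: Cpt1a stood at -0.46 in PH80_G+H (SE 0.252, adjusted p = 0.912) and all its libraries were below those of PH70.

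Acot3, a peroxisomal thioesterase for long-chain acyl-CoA, was the member called in both other comparisons of PH80_HC. It lies on chromosome 12 (84052144 to 84060402, + strand), beside Acot1, Acot2 and Acot4. It measured 113, 80.4 and 44.6 in PH70, 112.5, 165 and 127 in PH80, 292, 489.5 and 229.6 in PH80_HC, and 88.3, 68.8 and 46.9 in PH80_G+H. All PH80_HC libraries were above all others, and all PH80_G+H libraries were below all PH80 libraries.

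Acot3 was 4.28-fold higher in PH80_HC than in PH70 (337 ± 136 against 79.4 ± 34.3, SD, n = 3, log2 difference 2.10, SE 0.361, adjusted p = 0.0435), a call that 9 of 22 alternatives kept. It was 4.81-fold lower in PH80_G+H (68.0 ± 20.7) than in PH80_HC, at -2.27 (SE 0.361, adjusted p = 0.0258), and 16 of 22 alternatives kept that call. In this direct comparison of the arms 0.167% of all genes were called higher and 0.0875% lower, and Acot3 was the single member called. Against PH80 it stood at 1.26 in PH80_HC (adjusted p = 0.12) and at -1.01 in PH80_G+H (adjusted p = 0.326). The call against PH80_HC was lost without PH70 replicate 2, PH80_HC replicate 2 or 3, or any 1 of the 3 PH80_G+H libraries.

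The neighbouring thioesterases were not called between the arms. Acot4 measured 504, 716 and 367 in PH80_HC and 399, 343 and 349 in PH80_G+H, and Acot2 measured 258, 177 and 121 against 153, 172 and 77.5. Their groups overlapped, with differences of -0.49 (adjusted p = 0.427) and -0.47 (adjusted p = 0.544) in PH80_G+H against PH80_HC. Acot1 measured 362, 395 and 402 in PH80_HC and 445, 534 and 282 in PH80_G+H, also with overlap. It was the only thioesterase above 0, at 0.072. The aligned transcripts of Acot3 were 85.2% identical to Acot1, with a longest identical run of 203 bases, and 84.9% identical to Acot2 (67 bases). Of the 3431 bases of the Acot3 transcript, 1226 aligned to Acot1 and 1219 to Acot2. Acot1 and Acot2 were 94.3% identical (273 bases), so the split of reads among these genes is uncertain.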

How the data were processed

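The deposited table was made by the authors with DESeq2 on build GRCm38 (mm10), per the submitters' processing notes. Aligner, counter and annotation: not given in the sources used here. A stranded mRNA kit was used on 100 ng of RNA, per the labels' protocols. The deposited values are a normalised signal, reads divided by a size factor: 100% of the values in each library were whole multiples of 1 read within 0.01. Because they are not whole counts, limma 3.58.1 (R 4.3.3, intensity trend) was run on log2(value + 1) in 12570 genes (10 or more in 3 or more libraries); it understates changes of low genes. The 4 groups shared 1 estimate of the spread. EdgeR 4.0.16 and DESeq2 1.42.0 on the recovered reads were among 22 alternatives. Tests were two-sided over 6 comparisons. Simulated data were used to check PH80 against PH70 alone, with a spread that was set and not estimated from these libraries. All members were named. Values by library were to be given for the regulators, Cpt1a and every called member; those of other genes were added after the values were seen. Up to 4 called genes of each other list were named, by smallest adjusted p. Members and lists were chosen with earlier results of these data known. Positions and exonic lengths are from GENCODE M21. Some genes of the other lists are not reported here by name.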

Additional observations from a re-analysis of the deposited data

How the results depend on the processing

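All 6 calls of members kept their sign in the 22 alternatives, and the number of members called was less stable than the direction. In PH80 against PH70, 3 members were called, 1 with every library at the same total, 7 by DESeq2 and 0 to 6 when a library was left out. In PH80_HC against PH80, 1 was called, and 0 with every library at the same total, without the intensity trend, with the libraries of the compared groups only, with the replicate block, or without the 4 libraries of steepest trend on transcript length (1 per group); DESeq2 called 5, and leaving out a library gave 0 to 1. In PH80_HC against PH70, 1 was called, and 0 with every library at the same total, without the intensity trend, by edgeR, with the libraries of the compared groups only, or without those 4 libraries; leaving out a library gave 0 to 1. In PH80_G+H against PH80_HC, 1 was called, and 0 to 1 when a library was left out. A pseudocount of 5, no filter on low values and removal of the trend on transcript length left these counts as they were; elsewhere the cause was not tested. Scaling every library to the same total moved the median of all genes to 0.134 in PH80 against PH70, -0.314 in PH80_HC against PH80, -0.205 in PH80_HC against PH70 and 0.212 in PH80_G+H against PH80_HC. The replicate numbers did not pair the libraries: deviations of same-numbered libraries correlated from -0.367 to 0.373, over 0.1 in 6 of 18 pairs, against -0.527 to 0.428 between other numbers. With the replicate block, 2 members were called in PH80 against PH70, 0 in PH80_HC against PH80, 1 in PH80_HC against PH70, 0 in both comparisons of PH80_G+H with PH80 and PH70, and 1 in PH80_G+H against PH80_HC. Depth limits the members with few reads, such as Ppargc1a (59.7 to 169 normalised reads) and Acot3 (44.6 to 489.5).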

Other observations

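Several genes next to the members, named here for their roles after their values were seen, varied widely among libraries and had limma adjusted p values above 0.05 in all 6 comparisons. Pdk4, a kinase that PPARA induces in fasting, measured 131, 269 and 417 in PH70, 589, 302 and 696 in PH80, 736, 426 and 55.8 in PH80_HC, and 307, 454 and 364 in PH80_G+H. In PH80 against PH70 it stood at 1.02 (SE 0.712, adjusted p = 0.421), on the other side of 0 from Ppara. Fgf21, the hepatic hormone that PPARA drives in fasting, was between 2.97 and 93.2 normalised reads in all 12 libraries. Its lowest group was PH80_G+H, with 7.36, 2.97 and 19.7, and it stood there at -1.58 against PH80 (SE 0.679, adjusted p = 0.432). Klb, the coreceptor of Fgf21, measured 458, 506 and 290 in PH70 and 120, 271 and 276 in PH80 (-0.97, SE 0.329, adjusted p = 0.12). Cyp4a10, a hydroxylase and PPARA target, measured 750, 408 and 2022 in PH80 and 2355, 3704 and 1858 in PH80_G+H, with overlap (1.57, SE 0.608, adjusted p = 0.369).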
